A study of Mus musculus with 6 samples.

Results

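The genes described here are 10 components of Notch signalling in cultured mouse hippocampal precursor cells: the receptors Notch1 and Notch2, the ligands Dll1, Dll3 and Jag1, the DNA-binding mediator Rbpj, and the transcription factor genes Hes1, Hes5, Hey1 and Hes6. They were chosen by name, and every gene expression probe on the array that carries a RefSeq accession of one of them was taken. This gave 14 of 55681 probes, with 1 probe for 6 genes and 2 probes each for Notch1, Notch2, Dll3 and Rbpj. All 14 probes were well above background on all 6 arrays. The cells were isolated from the dentate gyrus of male C57BL6/JRj mice aged 8 weeks and grown as an attached layer with EGF and bFGF, each at 20 ng/ml, which keep them dividing. After 2 days of growth they received either human LDL, the low-density lipoprotein particle that carries cholesterol in blood, or saline, and RNA was taken 48 h later. The labels disagree on the LDL dose, given as 100 ug/ml in the treatment protocol and with another volume unit in the sample descriptions. Each group held 3 samples, from independent experiments on different passages, and each sample was hybridized to a 1-colour Agilent array. Both groups were thus cultures of the same cells in the same growth medium, and they differ by the addition of LDL.

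Notch signalling passes between touching cells. A ligand of the Delta-like or Jagged family on one cell pulls on a Notch receptor on its neighbour, the receptor is cut by ADAM proteases and gamma-secretase, and its intracellular domain joins RBPJ at DNA and turns on target genes. In adult neural stem cells the targets Hes1, Hes5 and Hey1 encode basic helix-loop-helix repressors that hold proneural genes in check and so keep cells undifferentiated. Hes6 is a relative that counteracts HES1 and is itself induced by proneural factors, and Dll1 and Dll3 are likewise proneural targets, so these genes mark cells that send the signal or have begun to differentiate.

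The promoters of the members with the lowest ratios of LDL to saline, and of the ligand gene whose probes both separated the groups, are shown because they carry the recognition letters of these 2 kinds of factor. Of the 10 members, 8 had at least 1 promoter window in the RefSeq table used (build GRCm38.p6), 11 windows in all, each the 250 bases before an annotated transcription start, written 5′ to 3′ on the gene's strand. Hes5 lies on the plus strand at chr4:154960673-154960922, and the capitals mark the 7-base RBPJ letters GTGGGAA on either strand.
Hes5: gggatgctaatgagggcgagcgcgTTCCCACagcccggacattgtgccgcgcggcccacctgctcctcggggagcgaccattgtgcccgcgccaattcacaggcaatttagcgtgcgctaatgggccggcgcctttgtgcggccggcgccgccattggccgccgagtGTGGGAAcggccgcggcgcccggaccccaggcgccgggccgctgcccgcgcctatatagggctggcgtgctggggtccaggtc
Hes6 has 2 annotated starts, both on the minus strand, with windows at chr1:91413223-91413472 and chr1:91414039-91414288. Capitals mark the E-box CAGCTG, letters that proneural factors bind, which read the same on both strands.
Hes6, window 1: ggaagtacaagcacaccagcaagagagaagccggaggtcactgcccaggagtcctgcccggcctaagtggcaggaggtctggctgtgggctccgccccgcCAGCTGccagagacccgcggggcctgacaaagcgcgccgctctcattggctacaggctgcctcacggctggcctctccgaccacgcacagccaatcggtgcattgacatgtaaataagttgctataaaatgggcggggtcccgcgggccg
Hes6, window 2: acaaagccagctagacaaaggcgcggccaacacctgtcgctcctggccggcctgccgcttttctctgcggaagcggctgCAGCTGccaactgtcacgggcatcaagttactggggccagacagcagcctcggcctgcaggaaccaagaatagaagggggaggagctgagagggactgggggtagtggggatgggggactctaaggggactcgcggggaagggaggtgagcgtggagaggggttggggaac
Dll3 lies on the minus strand at chr7:28301786-28302035, with the same E-box in capitals.
Dll3: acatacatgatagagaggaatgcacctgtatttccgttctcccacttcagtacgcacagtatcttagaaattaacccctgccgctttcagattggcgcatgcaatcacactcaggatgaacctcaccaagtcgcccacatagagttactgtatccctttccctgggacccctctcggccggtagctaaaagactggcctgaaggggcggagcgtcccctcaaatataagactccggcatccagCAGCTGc

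Hes5 held GTGGGAA 2 times, beginning 226 and 83 bases before the start. Of the 32851 promoter windows of this length in the table, 5.42% held GTGGGAA on either strand and 0.161% held it at least 2 times. The shorter core TGGGAA, which is contained in GTGGGAA, was found in 3 of the 11 member windows, those of Hes5 and both overlapping windows of Rbpj, against 21.6% of all windows. The E-box CAGCTG began 150 bases before the start in the first Hes6 window, 171 in the second and 7 in that of Dll3. It was found in 5 of the 11 member windows, those 3, 1 of Dll1 and that of Jag1, against 13.0% of all windows. Of other letters searched, with N for any base, CACGNG was found in 5 of the 11 member windows, against 23.5% of all windows. CACNAG was found in 3, against 36.7%. The windows shown were chosen by the values of their genes and by GTGGGAA or CAGCTG, so they cannot relate letters to a response. These matches describe letters only, since binding was not measured.

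The series as a whole gives the background for these genes. A feature is 1 gene or unnamed transcript, represented by its brightest probe, and its level is the log2 signal minus that of the 75th percentile of the same array, so that 0 equals that percentile. The share of probes well above background ran from 55.9% for saline replicate 2 to 66.9% for saline replicate 3. Within groups the median SD on the log2 scale was 0.188 for saline samples and 0.105 for LDL samples. Nothing in the labels separates animals, so p-values measure the spread between these cultures, and an exact permutation test of 3 against 3 could not go below 0.1. As a check that the LDL samples differed, Hmgcs1, an early enzyme of cholesterol synthesis, fell 4.43-fold, from 5.79 ± 0.12 to 3.65 ± 0.26 (mean ± SD, n = 3 each, limma adjusted p = 0.00956). That call was lost without saline replicate 2 or 3 or LDL replicate 2 or 3, with log2 fold changes between -2.22 and -2.03 and limma adjusted p between 0.064 and 0.0754, and also with no background filter (0.0953) and in slide row 1 alone (0.448). The log2 fold change of Hmgcs1 was -2.15 on its brightest probe and -1.7 with the mean over its probes (limma adjusted p = 0.00332).

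None of the 10 Notch genes passed the test between LDL and saline at an adjusted p of 0.05 over all 24177 features (limma). Over all features 33 passed, 0.136%, of which 28 (0.116%) were lower and 5 (0.0207%) higher with LDL; with median scaling the split was 22 lower and 8 higher. All 10 genes had a negative log2 fold change, meaning a lower mean with LDL, against 56.3% of all features. Leaving out saline replicate 1 reduced that count to 7; it was 9 when LDL replicate 1, saline replicate 2 or LDL replicate 3 was left out, with median scaling, or in slide row 1 alone. The median over the 10 genes was -0.15, within a range of -0.52 to -0.02, against -0.027 over all features. Without saline replicate 1 the 2 medians were -0.06 and 0.001, and without saline replicate 2 they were -0.29 and -0.058. For 2 of the 10 genes, Dll3 and Hes6, every LDL value lay below every saline value, which was so for 8.79% of all features (14.6% did not overlap in either direction). For 2 of the 10, Hes5 and Hes6, the unadjusted p was below 0.05, as for 7.5% of all features, or 4.53% counting those lower with LDL.

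**Figure D1:**
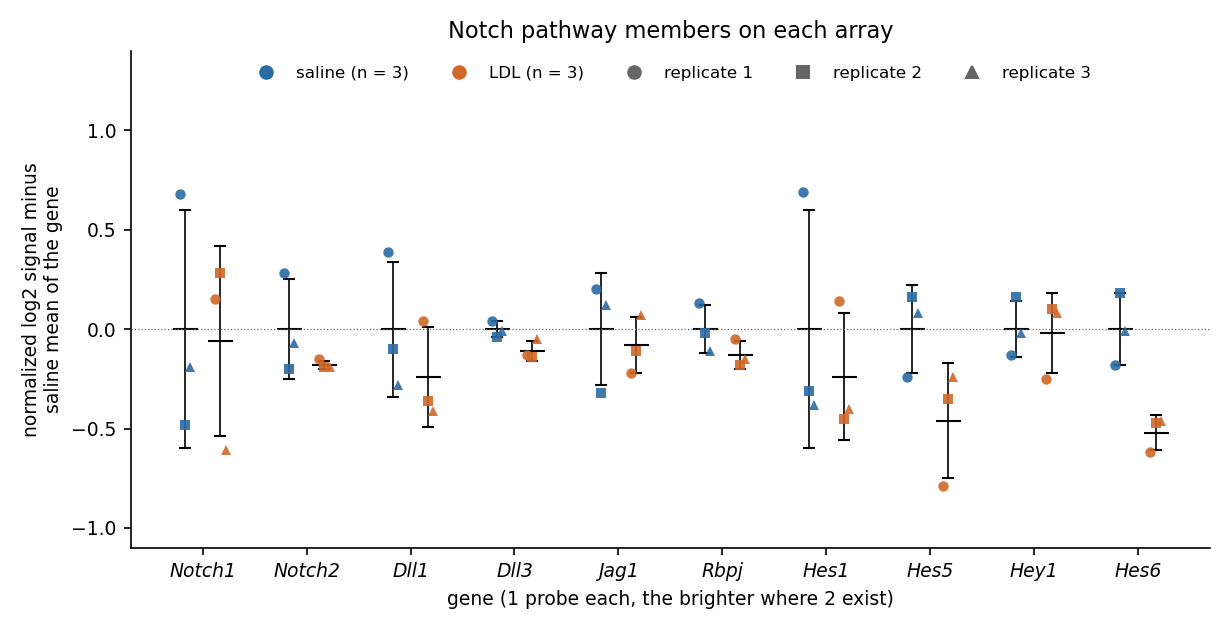
Normalized log2 signal of each of the 10 genes on each array minus the mean of the 3 saline arrays, with saline in blue, LDL in orange and a symbol for each replicate number; black marks are the group mean ± SD. The 3 Hes6 values with LDL sit below all saline values with a gap of 0.28, Hes5 values meet within 0.004, and saline replicate 1 is the highest saline value for Notch1, Notch2, Dll1, Dll3, Jag1, Rbpj and Hes1.

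The genes did not share an order of samples. Saline replicate 1 was the highest of the 3 saline samples for 7 genes, from the receptors to Hes1, and the lowest for the remaining 3, Hes5, Hey1 and Hes6. Among all features it was highest for 47.0% and lowest for 28.4%. With LDL, replicate 1 was highest for Notch2, Dll1, Rbpj and Hes1 and lowest for Jag1, Hes5, Hey1 and Hes6. The SD was larger with saline for 7 of the 10 genes, against 75.8% of all features. Averaged over the 10 genes, the normalized level ranged from 0.73 to 1.01 in saline samples and from 0.59 to 0.64 in LDL samples. The upper end of the saline range was saline replicate 1. These averages are a description of genes chosen together. Since the cultures were measured in bulk, fewer cells expressing a gene and less RNA per cell cannot be told apart.

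Among the receptors, neither Notch1 nor Notch2 differed by more than the spread between cultures. Notch1, a main receptor of neural stem cells, had normalized log2 signals of -0.67, -1.83 and -1.54 in saline replicates 1, 2 and 3 and of -1.20, -1.07 and -1.96 in LDL replicates 1, 2 and 3. The highest value was saline replicate 1, the lowest was LDL replicate 3, and the groups overlapped. The difference, as a log2 fold change, was -0.07 (SE 0.35, 95% interval -0.89 to 0.76, limma adjusted p = 0.981). The interval of the ratio of LDL to saline, 0.538 to 1.69, leaves room for a sizeable difference in either direction. The sign depended on single samples, with 0.27 without saline replicate 1 and 0.21 without LDL replicate 3. It also depended on the row of the slide, with 0.11 in row 1, which held replicates 1 and 2, and -0.42 in row 2, which held replicate 3. The dimmer Notch1 probe gave -3.93, -3.06 and -2.68 with saline and -3.22, -3.10 and -3.22 with LDL, with a log2 fold change of 0.04 (95% interval -0.66 to 0.74, limma adjusted p = 0.988). On that probe saline replicate 1 was the lowest value rather than the highest, so the 2 Notch1 probes disagreed on the direction in which it stood apart.

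Notch2, a receptor linked to the quiescence of adult stem cells, was measured more evenly. Its signals were 2.92, 2.44 and 2.57 with saline and 2.49, 2.45 and 2.45 with LDL. All LDL values lay within 0.04 of each other and inside the range of the saline values. LDL minus saline was -0.18 on the log2 scale (SE 0.14, 95% interval -0.51 to 0.15, limma adjusted p = 0.833), and -0.04 without saline replicate 1. The second probe gave -0.22 (95% interval -0.58 to 0.15, limma adjusted p = 0.85).

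Of the ligands, none passed. Dll1, the Delta-like ligand that activates receptors on neighbouring cells, was printed as 10 spots on each array, and the SD between these spots was 0.035 to 0.069. Its signals were 0.86, 0.37 and 0.19 with saline and 0.51, 0.11 and 0.06 with LDL. Replicate 1 was the highest in both groups, and the groups overlapped. The spread between cultures, with an SD of 0.34 for saline and 0.25 for LDL, was thus several times that between spots of 1 array. This gave a log2 fold change of -0.25 (SE 0.20, 95% interval -0.73 to 0.24, limma adjusted p = 0.845), and -0.05 without saline replicate 1.

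Dll3, a divergent ligand that acts inside the cell rather than activating receptors on neighbours, did not pass on either probe. Its brighter probe gave -1.14, -1.22 and -1.19 with saline and -1.31, -1.32 and -1.23 with LDL. There was no overlap between groups, by a gap of 0.014. The log2 fold change was -0.10 (SE 0.09, 95% interval -0.32 to 0.11, limma adjusted p = 0.85). On the dimmer probe the saline values were -1.74, -1.54 and -1.73 and the LDL values -2.0, -1.83 and -1.78, again without overlap, with a log2 fold change of -0.20 (95% interval -0.47 to 0.07, limma adjusted p = 0.812). With each sample left out in turn, the brighter probe stayed between -0.13 and -0.08. In slide rows 1 and 2 the differences were -0.13 and -0.04 on the brighter probe and -0.28 and -0.04 on the dimmer one.

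Jag1, the Jagged ligand expressed in the dentate gyrus, gave 1.08, 0.56 and 1.00 with saline and 0.66, 0.77 and 0.95 with LDL. Saline replicate 2 was the lowest value of all, and the LDL values lay inside the saline range. Its mean difference was -0.09 on the log2 scale (SE 0.16, 95% interval -0.47 to 0.30, limma adjusted p = 0.944), and 0.02 without saline replicate 1.

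Rbpj encodes the DNA-binding protein through which all Notch receptors act, and which represses targets when no receptor domain is bound. It gave 1.30, 1.15 and 1.06 with saline and 1.12, 0.99 and 1.02 with LDL. Saline replicate 1 was the highest, and the groups overlapped. The resulting log2 fold change was -0.13 (SE 0.11, 95% interval -0.38 to 0.12, limma adjusted p = 0.846), and -0.02 on the dimmer probe (95% interval -0.33 to 0.30, limma adjusted p = 0.989). On the brighter probe the value was -0.06 without saline replicate 1, -0.17 in slide row 1 and -0.04 in row 2.

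**Figure D2:**
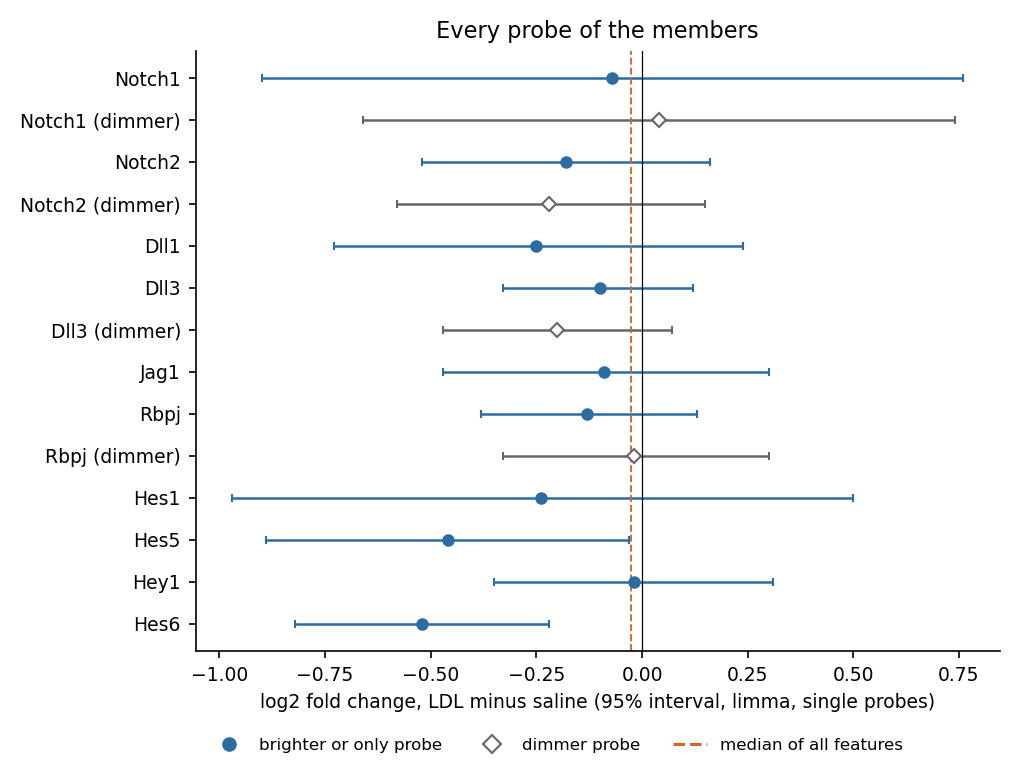
Log2 fold change of LDL minus saline for each of the 14 probes with its 95% interval (limma fit over single probes, 3 arrays a group); filled circles are the brighter or only probe of a gene, open diamonds the dimmer probe, and the dashed line is the median of all features. All probes but the dimmer one of Notch1 lie below 0, and the intervals of Hes5 and Hes6 alone do not reach 0.

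Among the HES and HEY genes, Hes6 had the lowest ratio of LDL to saline of the 10 genes. Its signals were 2.70, 3.06 and 2.87 with saline and 2.26, 2.41 and 2.42 with LDL. Every LDL value lay below every saline value, by a gap of 0.278. Means were 2.88 ± 0.18 and 2.36 ± 0.09 (SD, n = 3 each), a log2 fold change of -0.52 (SE 0.12, 95% interval -0.81 to -0.22). The ratio of LDL to saline was 0.7 (95% interval 0.571 to 0.858). The unadjusted p was 0.00437, a value reached by 262 of the 24177 features, and the limma adjusted p was 0.402, so Hes6 did not pass. The log2 fold change was -0.55 in slide row 1 and -0.45 in row 2, and between -0.60 and -0.42 with each sample left out. Hes6 was not past the threshold under any of the other settings, where its limma adjusted p lay between 0.205 and 1.0.

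Hes5, the repressor gene most closely tied to Notch activity in neural stem cells, came next. Its signals were 0.18, 0.58 and 0.50 with saline and -0.37, 0.07 and 0.18 with LDL. Replicate 1 was the lowest in both groups, and the groups met, with the highest LDL value 0.004 above the lowest saline value. This is a log2 fold change of -0.46 (SE 0.18, 95% interval -0.89 to -0.03), a ratio of 0.727 (95% interval 0.541 to 0.977). The unadjusted p was 0.0379, which 1442 features reached, and the limma adjusted p was 0.634. The value was -0.53 in slide row 1 and -0.32 in row 2, and between -0.58 and -0.30 with each sample left out.

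Hes1, the repressor whose level oscillates in dividing precursors, had the largest SD in both groups among the 4 HES and HEY genes of the set. Its signals were 0.60, -0.40 and -0.47 with saline and 0.05, -0.54 and -0.49 with LDL. Replicate 1 stood above the other samples in both groups, and the groups overlapped. LDL differed from saline by a log2 fold change of -0.24 (SE 0.31, 95% interval -0.97 to 0.50, limma adjusted p = 0.912), and 0.11 without saline replicate 1. It was -0.34 in slide row 1 and -0.02 in row 2.

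Hey1, a repressor related to the HES proteins that also responds to BMP, gave 2.30, 2.59 and 2.41 with saline and 2.18, 2.53 and 2.51 with LDL. Replicate 1 was lowest and replicate 2 highest in both groups. The log2 fold change was -0.02 (SE 0.14, 95% interval -0.35 to 0.30, limma adjusted p = 0.984). Its sign turned with the setting, to 0.02 with median scaling, 0.09 without LDL replicate 1 and 0.05 without saline replicate 2. The interval of the ratio, 0.785 to 1.23, bounds any difference in Hey1 more narrowly than the 0.511 to 1.41 of Hes1. Whether Hes5 or Hes6 responded differently from Hes1 or Hey1 was not tested, and their intervals overlap.

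**Figure D3:**
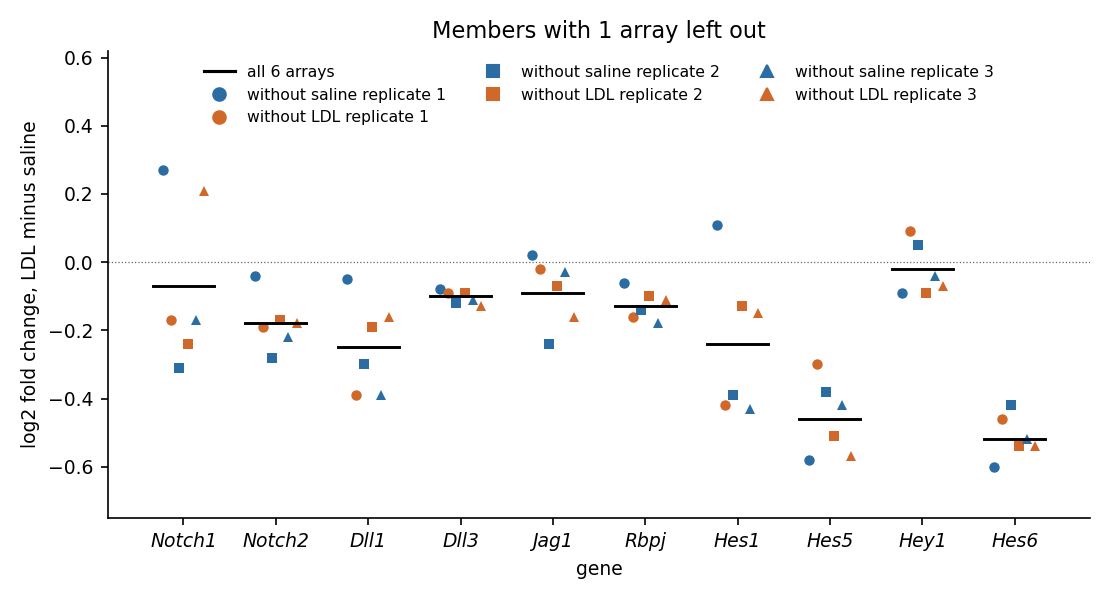
Log2 fold change of LDL minus saline for each of the 10 genes with all 6 arrays (black line) and with each array left out (symbols by replicate number, blue for a saline array and orange for an LDL array). Hes6 stays between -0.60 and -0.42 and Hes5 between -0.58 and -0.30, while Notch1, Jag1, Hes1 and Hey1 cross 0.

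The rest of the pathway was read from 7 lists by role, 69 genes of which 68 had a named probe and 60 could be tested. None of the 60 rose or fell at the adjusted threshold, and 5 had an unadjusted p below 0.05 (limma). Of the 60, 40 had a negative and 20 a positive log2 fold change, with a median of -0.06. Groups did not overlap for 6 with LDL lower and for 3 with LDL higher, against 8.79% and 5.83% of all features.

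Among 7 other receptor and ligand genes, 5 were tested, with a median of -0.04. Dner, a Notch ligand-like transmembrane protein of the nervous system, had the largest difference of any pathway gene tested. Its signals were 1.19, -0.01 and 0.48 with saline and -0.47, -0.56 and -0.19 with LDL, so that every LDL value was below every saline value. Its log2 fold change of -0.96 (SE 0.29, 95% interval -1.65 to -0.27, limma adjusted p = 0.51) is a ratio of 0.515, and the value was -0.64 without saline replicate 1. Notch3, a receptor of adult hippocampal stem cells and of vessel walls, gave 0.57, 0.48 and 0.38 with saline and 0.00, 0.27 and 0.30 with LDL, without overlap. Its log2 fold change was -0.29 (SE 0.12, limma adjusted p = 0.662), with -0.39 in slide row 1 and -0.08 in row 2, and -0.19 without LDL replicate 1. The ligand Dll4 was well above background in 2 saline samples and 0 LDL samples, and Jag2 in 0 saline samples and 1 LDL sample, so neither was tested.

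Genes that process the receptor or control ligand uptake and turnover lay near the median of all features. Of 13 processing genes tested, 6 were negative and 7 positive, with a median of 0.02. Psen2, a catalytic subunit of gamma-secretase, was higher in every LDL sample (log2 fold change 0.23, SE 0.12, limma adjusted p = 0.738), with 0.14 without saline replicate 3. Lfng, the glycosyltransferase that tunes which ligand a receptor responds to, had -0.38 with overlapping groups (SE 0.22, limma adjusted p = 0.774), and leaving out saline replicate 1 or 2 gave -0.58 or -0.21. Of 13 endocytosis and turnover genes, 9 were negative, with a median of -0.06. Mib2, a ubiquitin ligase that drives ligand uptake, gave 2.17, 2.24 and 2.16 with saline and 2.45, 2.45 and 2.37 with LDL. All LDL values of Mib2 were above all saline values (log2 fold change 0.23, SE 0.09, limma adjusted p = 0.628). Dtx1, a ubiquitin ligase that binds the receptor's intracellular part, was lower in every LDL sample, at -0.21 (SE 0.10, limma adjusted p = 0.705).

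Nuclear partners of RBPJ showed small differences in both directions. The 8 coactivator genes had a median of -0.02, and Kat2b, a histone acetyltransferase, had the smallest p among them (log2 fold change 0.28, SE 0.16, limma adjusted p = 0.765), with 0.17 without saline replicate 1. The 13 corepressor genes had a median of -0.08, with 9 negative and 4 positive. Tle3, a Groucho-family corepressor, had -0.17 with overlapping groups (SE 0.11, limma adjusted p = 0.815).

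Further targets and the proneural genes completed the set. Of 8 other targets, 5 were tested, with a median of -0.12, and 0 passed. Nrarp, a feedback inhibitor of Notch, had a log2 fold change of -0.27 (SE 0.23, limma adjusted p = 0.849), which was -0.43 without saline replicate 1, -0.13 without saline replicate 2 and -0.05 without LDL replicate 1. Fabp7, the fatty acid binding protein of radial glia, gave 7.98, 7.91 and 7.68 with saline and 7.65, 7.82 and 7.80 with LDL, a log2 fold change of -0.10 (95% interval -0.38 to 0.18, limma adjusted p = 0.898) that was 0.06 after normexp and quantile normalization. Hes3 had -0.47 (SE 0.33, limma adjusted p = 0.817) and was above background in only 2 of the LDL samples. It ranged from -0.75 without LDL replicate 3 to -0.18 without LDL replicate 1, and was -0.16 after normexp and quantile normalization. Of the 6 proneural genes 3 were tested and 3 were above background on 0 arrays.

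Neurog2, a proneural factor of committed precursors, had -0.36 without overlap (SE 0.12, limma adjusted p = 0.53), and -0.16 after normexp and quantile normalization (limma adjusted p = 0.638). Hes6 and Dll3 of the 10 genes were lower in every LDL sample than in every saline sample. So were Neurog2, Dner, Notch3, Dtx1 and Nedd4 among genes of the other lists. None of these passed over all features, and 8.79% of all features were lower in this way. The log2 fold change of Nedd4 was -0.15 (SE 0.1, limma adjusted p = 0.815), with its lowest saline value at 4.42 and its highest LDL value at 4.41.

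**Figure D4:**
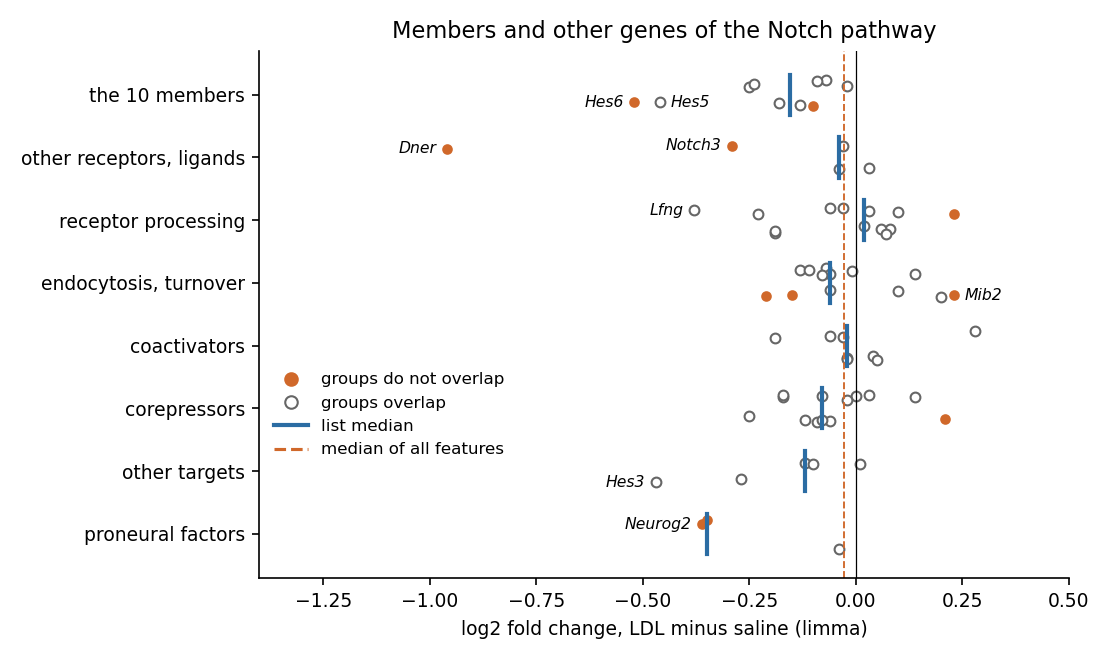
Log2 fold change of LDL minus saline for the 10 genes and the 60 other pathway genes tested, by role; filled points have groups that do not overlap, blue bars are list medians and the dashed line is the median of all features. Dner lies farthest from 0 at -0.96, the 10 genes have a median of -0.15, and the list medians of processing, turnover and coactivator genes lie between -0.06 and 0.02.

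Markers of the cell types such a culture could hold were read on the same scale. Precursor markers were present, with 9 of 10 tested and a mean level of 2.61 to 2.67 in saline samples and 2.67 to 2.68 in LDL samples. Of the 9, 5 had a negative and 4 a positive log2 fold change, from -0.35 to 0.58 with a median of -0.10, and 0 passed. Groups did not overlap for 1 with LDL lower and for 1 with LDL higher, against 8.79% and 5.83% of all features. Nes and Sox2, which define these cells, had log2 fold changes of 0.22 and -0.10 (limma adjusted p = 0.852 and 0.934). With each array left out Nes lay between 0.05 (LDL replicate 1 left out) and 0.36 (saline replicate 1 left out), and Sox2 was -0.01 and -0.26 when the same arrays were left out. Of 8 neuron markers, 5 were tested, with a mean level of 1.83 to 2.12 in saline samples and 1.75 to 1.81 in LDL samples. For each of the 5 the groups overlapped, and log2 fold changes ran from -0.33 to 0.02 with a median of -0.12. Among them Tubb3 had -0.33 (limma adjusted p = 0.726; -0.20 without saline replicate 1), while Dcx, Neurod1 and Stmn2, which mark new neurons, were above background on 0 arrays. The mean of the neuron list lay lower in the LDL samples, though the nearest saline and LDL values were 1.83 and 1.81. Saline replicate 1 was the highest saline sample for Tubb3, Map2, Rbfox3 and Snap25 and the lowest for Syp. The mean of the 60 other pathway genes tested also lay lower in the LDL samples, at 1.06 to 1.1 with saline and 0.99 to 1.04 with LDL. Any part of cell types in the values of Hes6 and Dner was not tested. The 8 astrocyte markers had mean levels of 0.68 to 0.77 with saline and 0.59 to 0.76 with LDL. Groups did not overlap for 2 of them with LDL lower and for 1 with LDL higher. Of the 8, 7 had a negative log2 fold change. The exception, Gfap, a filament gene of astrocytes and radial glia-like stem cells and a gene that Notch signalling can raise, rose by 1.35 (limma adjusted p = 0.0213). The level of this probe was low, at a mean of -3.45 with saline and -2.1 with LDL, though above background on all 6 arrays. The rise was 0.96 after normexp and quantile normalization (limma adjusted p = 0.0086). Gfap had 3 probes, and the only other one tested gave 0.15. The call was lost with the mean over probes (0.75, limma adjusted p = 0.304) and with no background filter (limma adjusted p = 0.165). It was also lost with slide row as a block (limma adjusted p = 0.0693) and in slide row 1 alone (limma adjusted p = 0.772). Leaving out any 1 sample other than saline replicate 1 lost it too (limma adjusted p between 0.0727 and 0.158). The mean level of the oligodendrocyte markers ranged from 0.76 to 0.94 in saline samples and from 0.58 to 0.79 in LDL samples, with 8 of 8 tested. Their log2 fold changes ran from -0.66 to 0.06 with a median of -0.05, and the groups overlapped for each. Of the microglia markers 5 of 8 were tested, with a mean level of -0.10 to 0.08 in saline samples and -0.13 to -0.03 in LDL samples. These 5, Cx3cr1, Csf1r, Tmem119, Itgam and Cd68, were above background on all 6 arrays. Aif1 and C1qa were above background on 1 array each and P2ry12 on 0. Tmem119 was lower in every LDL sample (log2 fold change -0.41, limma adjusted p = 0.514), and the groups overlapped for the other microglia markers tested. Of the vascular markers 4 of 8 were tested, with a mean level of -1.61 to -1.26 in saline samples and -1.53 to -1.25 in LDL samples. Pecam1, Kdr and Tek were above background on 6 arrays, Vwf on 5 and Cldn5 on 4, while Cdh5, Pdgfrb and Rgs5 were on 0.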

How the data were processed

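Total RNA of 3 saline and 3 LDL cultures was measured. RNA input was 100 ng, labelled with Cy3 as cRNA, per the labels' protocols. The deposited scanner values are linear intensity values, background-subtracted per the file headers. Versions in the submitters' processing notes are limma 3.34.9, R 3.4.4 and, for the scanner software, Agilent Feature Extraction 10.7.3.1. A second deposited table holds log2 values and correlated with the scanner values across probes at r = 0.9868 to 0.9928; its columns had medians of 6.7372 to 6.7573, so the arrays were aligned, with a method not given in the sources used here. It served as an alternative.

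The processed signal was taken as log2 minus that of the array's 75th percentile. Control and outlier-flagged spots were left out, and spots of a probe averaged. A probe was tested if at least 50% of its spots were well above background on all 3 arrays of a group and it had a value on all 6 arrays; 73 probes lacked one. This left 32920 probes and 24177 features, 14912 named. The files name probes by accession, so genes were named through RefSeq accessions matched to a GRCm38.p6 table (28331 of 55681 probes), used for names only; levels of different probes are not compared. LDL and saline were compared with limma 3.58.1 in R 4.3.3 (lmFit, eBayes, two-sided, no covariates) and Benjamini-Hochberg adjustment over all features, at 0.05, with fold changes on the log2 scale. The code was tested on simulated data. All members are named, with up to 3 genes of smallest p per other list, 6 pathway genes whatever their values, the first 2 of each marker list and further ones above or below background, chosen after their values were seen. A few genes covered by this choice are not reported here. Members and lists were chosen with earlier results of these data known. All arrays lay on 1 slide, in 2 rows, with 1 scan date. Promoter sequences are from RefSeq (GRCm38.p6). Figures were drawn with matplotlib 3.10.9.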

Additional observations from a re-analysis of the deposited data

How the results depend on the processing

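The 10 Notch genes gave 0 calls in all 19 alternatives, and so did the other pathway genes. The number of features passing (33) was 0 with no background filter (1775 with an unadjusted limma p below 0.05), 14 with the replicate number as a block, 15 with slide row as a block, 0 in slide row 1 alone (860) and 55 with trended robust variances. With each array left out it ranged from 0 to 32, with 0 without LDL replicate 2 (995), saline replicate 3 (1556) or LDL replicate 3 (1372), 3 without saline replicate 2 and 18 without LDL replicate 1. Keeping features with a missing array, an alternative chosen after seeing the data, gave 34.

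Signs turned for Hey1 with median scaling (0.02), Notch1 in slide row 1 alone (0.11) and Fabp7 after normexp and quantile normalization (0.06). With each array left out, Notch1 ranged from -0.31 to 0.27, Jag1 from -0.24 to 0.02, Hes1 from -0.43 to 0.11, Hey1 from -0.09 to 0.09, Olig1 from -0.35 to 0.01 and Olig2 from -0.14 to 0.01. Notch2, Dll1, Dll3, Rbpj, Hes5 and Hes6 were negative in 19 of 19 alternatives. The causes were not tested. The correlations of deviations of saline and LDL samples with the same replicate number were 0.236, -0.081 and 0.205, not all above 0.1, so the numbers were not taken to pair the samples. Not every sample correlated best with its own number. With the block, Hes5 had an unadjusted p of 0.00744 (limma adjusted p = 0.422), Hes6 did not pass either, and the call of Gfap was lost (limma adjusted p = 0.116). With 3 arrays a group and a median SE of 0.13 on the log2 scale, differences of the size seen for most of these genes could not be resolved.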
